A study of Mus musculus with 9 samples.

Results

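The 37 genes described here encode the ligands, receptors, binding proteins and adaptors of insulin and IGF signaling, its inhibitors, and the PI3K-Akt-mTOR route behind the receptors. They were picked by gene symbol from a list written by hand, and all 37 were found among the 18272 genes of the expression table. RNA came from 1 tibia of each of 9 female C57BL/6J mice, 3 in each of 3 groups, bought at 10 to 11 weeks of age. NGT mice had normal glucose tolerance, received vehicle in place of streptozotocin (STZ, which destroys the beta cells of the pancreas) and are labelled as given saline. T1D mice were made diabetic by 1 STZ injection and then received saline, and Lira mice received the same STZ injection and then liraglutide (0.6 mg/kg/day), a drug that mimics the gut hormone GLP-1. Treatment began 2 weeks after STZ and lasted 8 weeks, whereas the label of Lira mouse 3 gives 9 weeks. STZ diabetes is a chemical model in which the beta cells are lost to a toxin and not to autoimmunity, and no NGT mice were given liraglutide.

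Insulin and the IGFs act through the related tyrosine kinase receptors *Insr* and *Igf1r*, which recruit the adaptors *Irs1* and *Irs2*. These activate PI3K, which leads through *Pdpk1* to the Akt kinases, and Akt in turn inhibits *Gsk3a*, *Gsk3b* and the glucose transport regulators *Tbc1d1* and *Tbc1d4* and relieves the brake that *Tsc1* and *Tsc2* place on *Rheb* and mTOR. In bone, IGF-1 is made locally as well as delivered by the blood under the control of growth hormone, and the IGF-binding proteins decide how much of it reaches the receptor. Much of this route is regulated on the protein, by phosphorylation, which RNA levels do not show.

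None of the 35 genes with enough counts to test passed the threshold for a differentially expressed gene in any comparison. Nor did any other of the 13960 tested genes (edgeR). An unadjusted p under 0.05 was reached by 3 of 35 genes in T1D against NGT (3.95% of all tested genes) and by 2 in Lira against T1D (3.33%). In Lira against NGT the count was 1 (0.781%), and in T1D and Lira together against NGT it was 2 (1.80%). These genes included the following. *Igfbp4*, a binding protein that restrains IGF-1, was 2.44-fold higher in T1D than in NGT mice. *Grb14*, an adaptor that inhibits the insulin receptor, stood at 0.549 of its NGT level, and *Inppl1*, which encodes the lipid phosphatase SHIP2, at 0.652. For both, the unadjusted p rose above 0.05 when some single mice were left out. *Igf1* stood in Lira mice at 0.331 of its T1D level, a difference that 1 T1D mouse enlarged. The receptors *Insr* and *Igf1r* had unadjusted p-values above 0.1 in every comparison.

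The libraries held between 13086373 and 16528394 counts, of which these 37 genes took 0.284% to 0.36%. A count of 0 allows up to 3 counts, which correspond to 0.163 to 0.237 CPM (counts per 1e6 of the TMM-scaled library total), a limit set by counting error alone. Mice of a group differed widely, with a biological coefficient of variation of 0.433 in the edgeR estimate. T1D mouse 1 and Lira mouse 3 stood apart, since 476 and 441 genes respectively had over 2 times the level of any other library there, against 2 to 83 such genes in each of the other 7. The bones were described as cleaned of muscle, yet 19 skeletal muscle markers made up 14.2% of the counts of T1D mouse 1 and 28.9% of those of NGT mouse 3, with the other libraries in between, whereas 12 osteoblast markers, which define the labelled tissue, took between 0.0188% (NGT mouse 2) and 0.728% (T1D mouse 1). In such bulk samples, fewer cells of a type and less RNA per cell cannot be told apart. Each library came from a separate mouse. In the exact permutation test, 3 against 3 mice allow no p under 0.1.

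Of the 37 genes, 35 reached 10 counts in at least 3 libraries and were tested among 13960 genes. The other 2 were *Igfbp1*, a binding protein made mainly by the liver, and *Igfbp2*. *Igfbp1* had 4, 0 and 0 counts in the NGT mice, 1, 0 and 0 in the T1D mice and 3, 0 and 0 in the Lira mice. *Igfbp2* had 11, 2 and 2 counts in the NGT mice, 2, 3 and 5 in the T1D mice and 14, 0 and 9 in the Lira mice. At this depth both fell below the low-count filter, and they entered only the fit without that filter.

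Levels of different genes were compared per length, on the FPKM values of the authors. Over the 9 libraries *Akt2*, the Akt kinase of muscle and fat, came first at 96.4 ± 15.4 FPKM (SD, n = 9), followed by *Gsk3a* at 85.8 ± 6.03 FPKM. *Igfbp7* (71.0 ± 55.6 FPKM) and *Igfbp5* (67.0 ± 18.8 FPKM) led the binding proteins, and *Rheb*, the GTPase that activates mTOR, reached 65.8 ± 9.54 FPKM. The growth hormone receptor *Ghr* (50.9 ± 7.31 FPKM) was the most abundant receptor gene, whereas *Insr* (12.4 ± 1.64 FPKM) and *Igf1r* (3.36 ± 0.902 FPKM) stood in the middle and near the end of the order. *Igf1* itself had 4.01 ± 4.40 FPKM, and *Igf2* had 9.51 ± 3.54 FPKM. Most neighbors in this order lay closer than their SD, namely 33 of the 36 neighboring pairs. The exceptions were the steps from *Rheb* to *Ghr*, from *Rptor* to *Pik3cb* and from *Rictor* to *Igfbp2*.

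**Figure D1:**
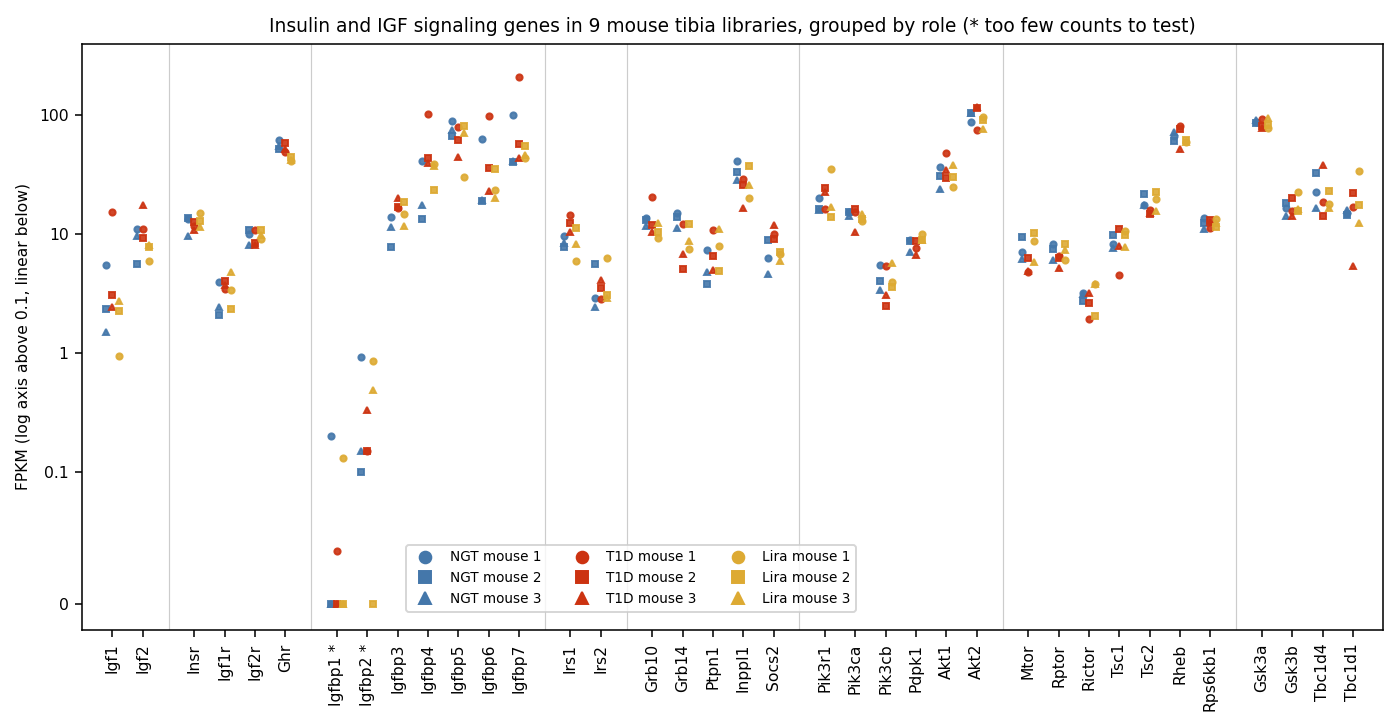
FPKM (vertical axis, logarithmic above 0.1 and linear below) of the 37 genes in the 9 libraries, grouped by role from ligands to Akt substrates; each point is 1 mouse, with color for the group and shape for the mouse number. Akt2 and Gsk3a lie near 100 FPKM, Igf1 and Igf1r average 4.01 and 3.36, Igfbp1 and Igfbp2 lie near 0, and the points of the 3 groups are mixed for most genes.

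How much a gene varied between mice differed widely within this set. The coefficient of variation of CPM over the 9 mice was 92.3% for *Igf1*, 60.8% for *Igfbp7* and 55.9% for *Igfbp6*, and 52.6% for *Tbc1d1*. It was 11.2% for *Gsk3a* and 11.8% for *Rps6kb1*, the ribosomal S6 kinase, and 10 of the 35 tested genes were below 20%. The 4 receptor genes were among the more even, at 14.8% (*Igf2r*) to 21.5% (*Igf1r*). T1D mouse 1 held the highest value of 6 genes and the lowest value of 14 of the 35, where 20.7% and 23.8% of all tested genes had their highest and lowest value in that library. Lira mouse 1 held the highest value of the most genes, 8 of the 35, and the lowest value of 4. Of all tested genes, 9.92% and 10.3% had their highest and lowest value there.

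Promoter sequences are shown for *Igf1*, *Igfbp4* and *Grb14*, the ligand, binding protein and inhibitor with the lowest p-values of their roles. They are the 250 bases before the start of the gene in RefSeq (GRCm38.p6), written 5′ to 3′ on the strand of the gene. The capitals mark the matches to 3 motifs described after them. The authors' processing notes name another build, mm9, and the coordinates are those of the reference only. *Igf1* lies at chr10:87860861-87861110 (plus strand), *Igfbp4* at chr11:99040994-99041243 (plus strand) and *Grb14* at chr2:65022767-65023016 (minus strand).
Igf1: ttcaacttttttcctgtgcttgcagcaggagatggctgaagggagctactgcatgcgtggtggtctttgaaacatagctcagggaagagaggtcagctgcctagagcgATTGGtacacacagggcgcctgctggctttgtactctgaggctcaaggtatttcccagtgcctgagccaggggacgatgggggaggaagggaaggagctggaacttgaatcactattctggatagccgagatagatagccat
Igfbp4: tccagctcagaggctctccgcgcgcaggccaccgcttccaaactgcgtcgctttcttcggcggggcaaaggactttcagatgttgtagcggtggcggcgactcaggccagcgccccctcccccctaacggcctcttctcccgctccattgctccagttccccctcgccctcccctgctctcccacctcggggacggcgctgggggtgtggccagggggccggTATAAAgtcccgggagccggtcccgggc
Grb14: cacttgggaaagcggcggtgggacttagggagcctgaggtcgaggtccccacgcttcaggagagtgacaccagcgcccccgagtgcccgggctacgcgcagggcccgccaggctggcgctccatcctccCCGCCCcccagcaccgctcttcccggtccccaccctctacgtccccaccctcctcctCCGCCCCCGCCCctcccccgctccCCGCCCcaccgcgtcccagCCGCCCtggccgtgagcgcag
The *Igf1* window was 52.8% G and C and held 1 inverted CCAAT box (ATTGG, first base 142 bases before the start). The *Igfbp4* window was 69.2% G and C and held a TATA box (TATAAA) 28 bases before the start. The *Grb14* window was 75.2% G and C and held 5 GC boxes on the opposite strand (CCGCCC, 121, 64, 58, 40 and 21 bases before the start). Searched on both strands, TATAAA (reverse TTTATA) was found in 12.4% of the 32851 mouse promoter windows of this length, GGGCGG (reverse CCGCCC) in 32.7% and CCAAT (reverse ATTGG) in 33.8%. RefSeq windows were at hand for 35 of the 37 genes, with 49 windows in all. GC boxes occurred in 26 of these 49 windows, CCAAT boxes in 14 and TATA boxes in 5, those of *Ghr*, *Gsk3b*, *Igfbp4*, *Igfbp6* and *Pik3r1*. The FoxO core TGTTTAC (reverse GTAAACA), found in 3.17% of all windows, occurred in 1 of the 49, that of *Akt1*. The insulin response letters TGTTTTG (reverse CAAAACA), found in 5.56% of all windows, occurred in 3 of the 49, those of *Igfbp1*, *Irs1* and *Irs2*. TGTTTAC and TGTTTTG share their first letters, and no motif lies within another. A match is a description of the window, not a binding site.

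The comparison of T1D with NGT mice sets diabetic against normal tibia samples, which held much muscle RNA and differed in their tissue mix. In it, 0 of 35 genes passed an adjusted p of 0.05 with a fold change over 2 (edgeR's quasi-likelihood test, Benjamini-Hochberg over 13960 genes), as did 0% of all tested genes. The lowest adjusted p of the set was 0.977. At an unadjusted p under 0.05 there were 3 of 35 genes, 1 higher (*Igfbp4*) and 2 lower (*Grb14* and *Inppl1*), against 3.95% of all tested genes (2.36% higher and 1.60% lower). DESeq2 gave 4 of 35 at that level (4.99% of all tested genes) and also 0 past the adjusted threshold. Without T1D mouse 1 the count was 6 of 35 (3% of all tested genes), without Lira mouse 2, which enters the estimate of the spread, it was 5 (4.39%), and without T1D mouse 1 and Lira mouse 3 together it was 3 (3.84% of all tested genes). The ranges of the groups did not overlap for 7 of 35 genes, against 8.60% of all tested genes. *Igfbp3*, *Igfbp4* and *Irs1* were higher in all 3 T1D mice (3 of 35, against 3.52% of all tested genes), and *Grb14*, *Igfbp5*, *Inppl1* and *Rptor* were lower (4 of 35, against 5.08%). The median log2 fold change was -0.14 in the set and 0.02 over all tested genes, and 13 of 35 values were above 0, where 52.1% of all tested genes were. The set median did not keep its sign, since it was 0.03 with the muscle list as a covariate, 0.04 without NGT mouse 2 and 0 on both FPKM scales, and it was -0.02 without T1D mouse 1 and -0.05 without T1D mouse 1 and Lira mouse 3.

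Neither the labels nor the paper describe a pairing of mice. Same-numbered NGT and T1D mice deviated together across genes, however, and with the number as a block the count was larger. The block was chosen from these same expression values, so its smaller p-values are no separate support. Mice of unlike number deviated together as well, with r = 0.78 for NGT mouse 1 and Lira mouse 3. Fitted to these 2 groups alone with the block, 9 of 35 genes had an unadjusted p under 0.05, against 14.2% of all genes. These were *Igf1*, *Igfbp3*, *Igfbp4*, *Igfbp6* and *Irs1*, higher in T1D in each of the 3 numbers, and *Grb14*, *Inppl1*, *Mtor* and *Rptor*, lower in each of the 3. None of them passed the adjusted threshold (lowest adjusted p of the set 0.229, edgeR). With the block in the fit of all 9 libraries, the count was 4 of 35, against 5.39% of all genes.

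**Figure D2:**
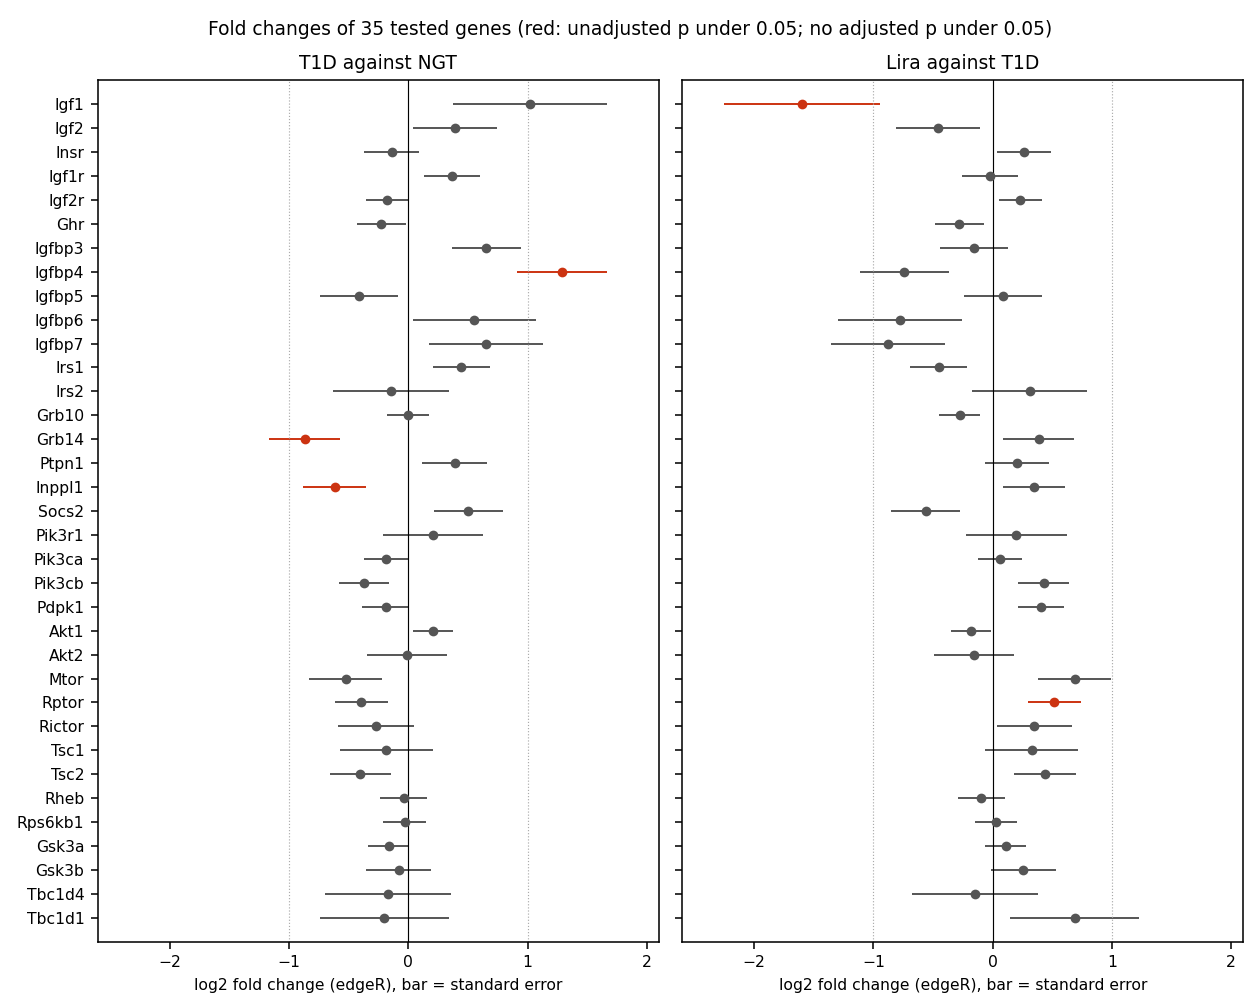
Log2 fold change (horizontal axis) of the 35 tested genes in T1D against NGT (left) and Lira against T1D (right), from edgeR; points are estimates from 3 mice per group, bars are standard errors, dotted lines mark 2-fold, and red marks an unadjusted p under 0.05. Igfbp4 stands at 1.29 and Grb14 at -0.87 on the left, Igf1 at -1.60 on the right, and both panels share the T1D mice.

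Among the ligands, *Igf1* (gene 16000), the main growth factor of bone, had 32.7, 18.9 and 12.3 CPM in the NGT mice, 88.2, 22.3 and 19.1 CPM in the T1D mice and 7.42, 17.9 and 17.5 CPM in the Lira mice. T1D mouse 1 was far above all others, and the other T1D mice lay within the NGT range. The log2 fold change of T1D against NGT was 1.02 ± 0.65 (SE, n = 3 per group, adjusted p = 0.977, edgeR), and without T1D mouse 1 it was -0.04. In the same library 8 macrophage markers had a mean log2(CPM + 1) of 5.72, against 2.18 to 3.64 in the other 8 libraries. The list ranged from 2.18 to 3.57 in NGT, 3.10 to 5.72 in T1D and 3.09 to 3.64 in Lira mice, with 7 of the 8 markers above NGT in T1D and 1 of the 8 at 0 counts in at least 1 library. The part of these cells in the *Igf1* value was not tested. *Igf2*, the growth factor mainly of fetal life, had 29.1, 24.4 and 34.0 CPM in the NGT mice, 21.3, 31.9 and 61.8 CPM in the T1D mice and 24.4, 32.6 and 26.8 CPM in the Lira mice. Apart from T1D mouse 3, its values lay between 21.3 and 34.0 CPM in all groups.

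Among the receptors, *Insr* (gene 16337) had 106, 147 and 105 CPM in the NGT mice, 90.1, 121 and 114 CPM in the T1D mice and 156, 136 and 96.7 CPM in the Lira mice. The groups overlapped, and the log2 fold change of T1D against NGT was -0.14 ± 0.23 (SE, adjusted p = 0.985, edgeR). *Igf1r* (gene 16001), through which both IGFs signal, had 37.1, 26.8 and 30.9 CPM in the NGT mice, 30.9, 45.4 and 45.9 CPM in the T1D mice and 42.3, 30.1 and 47.9 CPM in the Lira mice. Of the T1D mice, 2 lay above every NGT mouse, with a log2 fold change of 0.37 ± 0.23 (SE, adjusted p = 0.977, edgeR). *Igf2r*, the clearance receptor of IGF-2, stayed between 75.5 and 109 CPM in all 9 mice. *Ghr* (gene 14600) had 187, 223 and 243 CPM in the NGT mice, 140, 216 and 203 CPM in the T1D mice and 153, 173 and 135 CPM in the Lira mice. All Lira mice were below all NGT mice, and the T1D mice overlapped with both.

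Of the 5 tested binding proteins, 4 had a log2 fold change above 0 in T1D against NGT and 1, *Igfbp5*, had one below 0. Their median was 0.65, and it was -0.06 without T1D mouse 1 and 0.22 with the muscle list as a covariate. Among the marker lists, 8 of 8 adipocyte markers and 6 of 6 tested chondrocyte markers were also above 0 in this comparison, and 0 of 8 and 1 of 6 were above 0 in Lira against T1D. Above 0 in T1D against NGT were also 11 of 11 tested erythroid, 11 of 12 osteoblast and 7 of 8 macrophage markers, and in Lira against T1D these numbers were 11, 1 and 1. The mean log2(CPM + 1) of the adipocyte list ranged from 2.95 to 5.74 in NGT, 4.26 to 6.26 in T1D and 3.93 to 4.83 in Lira mice, and that of the chondrocyte list from 1.02 to 2.15, 1.37 to 3.63 and 1.09 to 3.26. In at least 1 library, 1 of the 8 adipocyte and 4 of the 8 chondrocyte markers of the table were at 0 counts. The part of these cells in the binding protein values was not tested. *Igfbp4* (gene 16010) had 71.7, 31.2 and 41.0 CPM in the NGT mice, 170, 90.6 and 90.6 CPM in the T1D mice and 87.7, 53.4 and 68.9 CPM in the Lira mice. Every T1D mouse was above every NGT and every Lira mouse. The log2 fold change of T1D against NGT was 1.29 ± 0.38 (SE, unadjusted p = 0.00809, adjusted p = 0.977, edgeR), and with the block and these 2 groups alone it was 1.31 ± 0.14 (SE, unadjusted p = 0.000134, adjusted p = 0.229, edgeR). Leaving out each of the 9 mice in turn, its estimate lay between 0.92 and 1.70 and its unadjusted p between 0.00188 and 0.0324, and without T1D mouse 1 and Lira mouse 3 together they were 0.88 and 0.0534 (edgeR). *Igfbp7*, the binding protein with the highest FPKM, had 91.6, 50.1 and 51.6 CPM in the NGT mice, 187, 63.9 and 53.0 CPM in the T1D mice and 53.0, 67.0 and 45.4 CPM in the Lira mice. As with *Igf1*, the T1D mouse far above the others was mouse 1, and *Igfbp6* also had its highest value there (102 CPM, against 23.0 to 67.5 CPM elsewhere). *Igfbp3*, the main carrier of IGFs in blood, had 21.4 to 32.1 CPM in the NGT mice and 32.6 to 54.5 CPM in the T1D mice (log2 fold change 0.66 ± 0.29, SE, adjusted p = 0.977, edgeR). *Igfbp5*, a binding protein abundant in bone and muscle, had 442 to 504 CPM in the NGT mice, 293 to 379 CPM in the T1D mice and 197 to 535 CPM in the Lira mice.

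The adaptor *Irs1* (gene 16367) had 75.1, 81.1 and 88.7 CPM in the NGT mice, 109, 117 and 108 CPM in the T1D mice and 59.9, 116 and 68.1 CPM in the Lira mice. The NGT and T1D mice formed tight, separate ranges, with a log2 fold change of 0.45 ± 0.24 (SE, adjusted p = 0.977, edgeR), and Lira mouse 2 was at the T1D level. *Irs2* (gene 384783) had 9.71, 25.6 and 11.2 CPM in the NGT mice, 9.35, 14.5 and 18.3 CPM in the T1D mice and 28.1, 13.6 and 10.5 CPM in the Lira mice. In NGT and in Lira, 1 mouse had over 2 times the level of the others, and the groups covered one another.

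Of the 5 inhibitors, 2 had an unadjusted p under 0.05 in T1D against NGT, both lower, where 1.60% of all tested genes were lower at that level. *Grb14* (gene 50915) had 23.4, 29.4 and 24.4 CPM in the NGT mice, 18.4, 9.43 and 14.4 CPM in the T1D mice and 15.3, 25.4 and 14.6 CPM in the Lira mice. All T1D mice were below all NGT mice, whereas Lira mouse 2 lay within the NGT range. The log2 fold change of T1D against NGT was -0.87 ± 0.30 (SE, unadjusted p = 0.0182, adjusted p = 0.977, edgeR). Its unadjusted p was 0.0585 without NGT mouse 2 and 0.0529 without T1D mouse 2 (edgeR). *Inppl1* (gene 16332) had 167, 181 and 156 CPM in the NGT mice, 111, 128 and 89.3 CPM in the T1D mice and 107, 200 and 111 CPM in the Lira mice. Again all T1D mice were below all NGT mice, and Lira mouse 2 was above them (log2 fold change of T1D against NGT -0.62 ± 0.26, SE, unadjusted p = 0.0442, adjusted p = 0.977, edgeR). Its unadjusted p was above 0.05 without NGT mouse 1 (0.0784), NGT mouse 2 (0.107), NGT mouse 3 (0.0643), T1D mouse 1 (0.0783) or T1D mouse 3 (0.139), where the estimate lay between -0.67 and -0.49 (edgeR). *Ptpn1*, the phosphatase that switches off the insulin receptor, had 18.2 to 26.2 CPM in the NGT mice and 23.3 to 37.2 CPM in the T1D mice. *Grb10*, a relative of *Grb14*, had 56.4 to 73.5 and 57.1 to 79.6 CPM in the same groups. *Socs2*, an inhibitor of growth hormone signaling, had a mean of 17.8 ± 6.26 CPM in the NGT mice and 25.2 ± 6.42 CPM in the T1D mice (SD, n = 3).

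**Figure D3:**
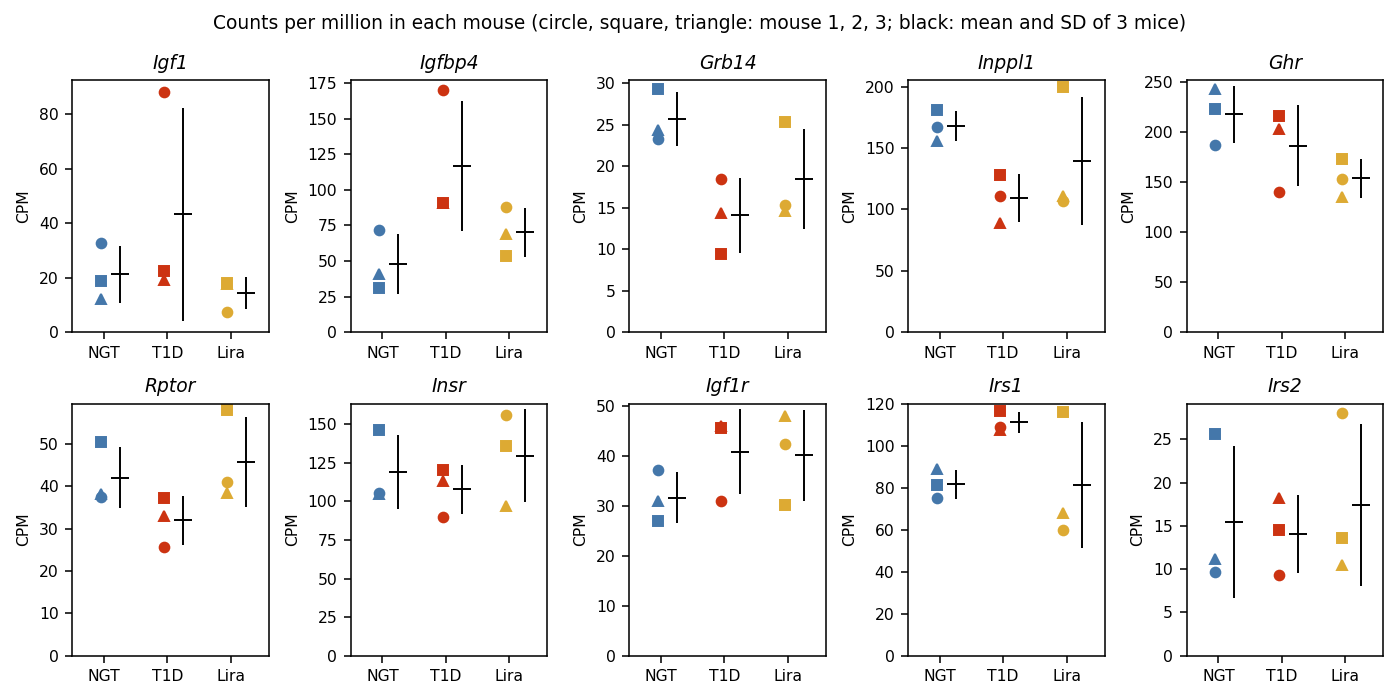
CPM (vertical axes, from 0) of 10 genes in each NGT, T1D and Lira mouse; circles, squares and triangles are mice 1, 2 and 3, and black marks are the mean and SD of 3 mice. Igfbp4, Grb14, Inppl1 and Irs1 show separate NGT and T1D ranges, T1D mouse 1 alone carries the high Igf1 mean at 88.2 CPM, and Insr, Igf1r and Irs2 overlap between groups.

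Further along the route, none of the 17 genes of the PI3K-Akt, mTOR and Akt substrate roles had an unadjusted p under 0.05 in T1D against NGT, where 3.95% of all tested genes did. With the block and these 2 groups alone, *Mtor* (0.0117) and *Rptor* (0.0286) were under 0.05 (edgeR, adjusted p = 0.251 and 0.299), where 14.2% of all genes were. All 7 mTOR genes had a log2 fold change below 0, with a median of -0.27, but only 5 of the 7 did so with library size in place of TMM or on FPKM, and 5 of the 7, with a median of -0.02, without T1D mouse 1. With the muscle list as a covariate, 4 of the 7 were below 0, with a median of -0.16. Of the 19 skeletal muscle markers, 2 had a log2 fold change above 0 in the same comparison (median -0.16) and 10 in Lira against T1D (0.05). The mean log2(CPM + 1) of this list ranged from 12.6 to 13.5 in NGT, 12.0 to 13.3 in T1D and 12.7 to 13.4 in Lira mice, with 0 markers at 0 counts in any library. *Mtor*, the kinase itself, had 48.0, 79.0 and 52.7 CPM in the NGT mice and 32.6, 49.1 and 43.2 CPM in the T1D mice. *Rptor* (gene 74370), which encodes the mTORC1 subunit raptor, had 37.4, 50.4 and 38.2 CPM in the NGT mice, 25.7, 37.2 and 33.0 CPM in the T1D mice and 40.9, 57.9 and 38.3 CPM in the Lira mice. The T1D mice were thus below every other mouse for *Rptor*, by a small margin (log2 fold change of T1D against NGT -0.40 ± 0.22, SE, adjusted p = 0.977, edgeR). *Rheb* had 84.0, 103 and 124 CPM in the NGT mice, 99.1, 117 and 86.4 CPM in the T1D mice and 98.1, 104 and 80.7 CPM in the Lira mice, without a difference in range.

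*Akt2* had 217, 350 and 352 CPM in the NGT mice, 178, 349 and 387 CPM in the T1D mice and 313, 302 and 205 CPM in the Lira mice. Within each group, 1 mouse was low, namely NGT mouse 1, T1D mouse 1 and Lira mouse 3. These were the 3 libraries with the smallest share of skeletal muscle counts (18.7%, 14.2% and 18.9%, against 24.6% to 28.9% in the others). *Gsk3a* had 150, 198 and 212 CPM in the NGT mice, 153, 169 and 178 CPM in the T1D mice and 178, 187 and 174 CPM in the Lira mice. The regulatory subunit gene *Pik3r1* had 79.3 to 167 CPM in the 8 mice other than Lira mouse 1, which had 268 CPM. Lira mouse 1 also had the highest *Tbc1d1* value, at 202 CPM against 32.6 to 120 CPM elsewhere. *Tbc1d4* reached 186 CPM in NGT mouse 2 and 203 CPM in T1D mouse 3, and 57.5 to 130 CPM in the other mice.

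The comparison of Lira with T1D mice asks what liraglutide does in diabetic mice, and it shares the T1D mice with the comparison above, so that a T1D mouse far from the others moves both. Again 0 of 35 genes passed (0% of all tested genes, lowest adjusted p of the set 0.978, edgeR). An unadjusted p under 0.05 was found for 2 of 35 genes, *Rptor* (higher) and *Igf1* (lower), against 3.33% of all tested genes (1.55% higher and 1.78% lower), and by DESeq2 for 3 (4.44%). The count was 4 without T1D mouse 2 (4.04% of all tested genes), 4 without Lira mouse 3 (5.35%), 1 without NGT mouse 3 (2.50%), 1 without Lira mouse 2 (3.12%), 0 without Lira mouse 1 (1.83%), and 4 without T1D mouse 1 and Lira mouse 3 together (3.66% of all tested genes). *Igf1* was lower in all Lira mice than in all T1D mice, with a log2 fold change of -1.60 ± 0.66 (SE, unadjusted p = 0.0387, adjusted p = 0.978, edgeR). The margin between the groups was small, since the lowest T1D mouse had 19.1 CPM and the highest Lira mouse 17.9 CPM. Without T1D mouse 1 the log2 fold change was -0.53, and its unadjusted p was above 0.05 without that mouse (0.299), NGT mouse 2 (0.0507), Lira mouse 1 (0.116), Lira mouse 2 (0.0573) or Lira mouse 3 (0.056, edgeR). *Rptor* was higher in all Lira mice, with a log2 fold change of 0.52 ± 0.22 (SE, unadjusted p = 0.0461, adjusted p = 0.978, edgeR). It was 0.31 without Lira mouse 2, and the unadjusted p lay between 0.0514 and 0.187 without NGT mouse 1, NGT mouse 3, T1D mouse 1, T1D mouse 3, Lira mouse 1 or Lira mouse 2 (edgeR). Groups without overlap were found for 4 of 35 genes, against 7.13% of all tested genes (1 higher and 3 lower, against 3.74% and 3.40%). Beside *Rptor* and *Igf1*, these were *Igfbp4* (log2 fold change -0.74 ± 0.37, SE, adjusted p = 0.978, edgeR) and *Grb10* (-0.28 ± 0.17, SE, adjusted p = 0.978, edgeR), both lower in Lira.

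The median log2 fold change of Lira against T1D was 0.09 in the set and 0.04 over all tested genes, and 20 of 35 values were above 0, where 55.3% of all tested genes were. The set median turned to -0.01 without T1D mouse 1, -0.04 without Lira mouse 1, -0.02 with library size in place of TMM and -0.01 on both FPKM scales. Of the binding proteins, 4 of 5 were below 0 with a median of -0.74. Without T1D mouse 1 and Lira mouse 3 together, 2 of 5 were below 0 and the median was 0.04. Of the mTOR genes, 6 of 7 were above 0 with a median of 0.35, 5 of 7 with library size in place of TMM, and 4 of 7 with a median of 0.09 without T1D mouse 1. With the muscle list as a covariate, the medians were -0.30 for the binding proteins and 0.29 for the mTOR genes, with 4 of 5 below 0 and 5 of 7 above 0. For *Insr* the log2 fold change was 0.26 ± 0.23, for *Igf1r* -0.02 ± 0.23, for *Irs1* -0.45 ± 0.24, for *Irs2* 0.31 ± 0.49, for *Ghr* -0.28 ± 0.21, for *Grb14* 0.39 ± 0.30 and for *Inppl1* 0.35 ± 0.26 (SE). All of these had an adjusted p of 0.978 or above (edgeR).

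Lira mice were also set against NGT mice, and both STZ groups together against NGT. In Lira against NGT, 0 of 35 genes passed (0% of all tested genes, lowest adjusted p of the set 0.999, edgeR), and 1, *Ghr*, had an unadjusted p under 0.05, against 0.781% of all tested genes and also 1 by DESeq2 (1.11%). *Ghr* was lower in Lira by a log2 fold change of -0.50 ± 0.21 (SE, unadjusted p = 0.0414, edgeR) and was the 1 gene of 35 without overlap, against 4.27% of all tested genes. Its unadjusted p was above 0.05 without NGT mouse 2 (0.0925), NGT mouse 3 (0.125), T1D mouse 3 (0.0535), Lira mouse 1 (0.09) or Lira mouse 3 (0.117, edgeR). The count under 0.05 was 0 of 35 without NGT mouse 2, NGT mouse 3, T1D mouse 3 or Lira mouse 1 (0.423% to 0.75% of all tested genes), 2 without NGT mouse 1 (2.22%) or T1D mouse 1 (1.16%), and 4 without Lira mouse 2 (3.2%). Markers of marrow cells were above 0 in the same comparison, with 11 of 11 tested erythroid markers (median log2 fold change 1.93), 12 of 12 neutrophil markers (1.12) and 6 of 6 tested B cell markers (1.34), and in Lira against T1D all of these were above 0 as well (0.98, 1.13 and 1.62). None of these markers had an unadjusted p under 0.05 in either comparison (edgeR). The mean log2(CPM + 1) of the erythroid list ranged from 3.01 to 6.86 in NGT, 3.32 to 7.99 in T1D and 4.08 to 8.89 in Lira mice, that of the neutrophil list from 0.549 to 6.88, 2.17 to 6.16 and 2.74 to 7.97, and that of the B cell list from 0.135 to 3.30, 1.84 to 2.27 and 0.776 to 4.68. In at least 1 library, 1, 4 and 2 markers of the 3 lists were at 0 counts. Of the 19 skeletal muscle markers, 6 were above 0 in Lira against NGT (median -0.135). Over the 9 mice, *Ghr* had a Pearson r of 0.682 with the muscle list (adjusted p = 0.216, exact permutation). With the osteoblast, erythroid and neutrophil lists r was -0.477, -0.474 and -0.591 (adjusted p = 0.403, 0.403 and 0.269, exact permutation). The part of muscle or marrow cells in the *Ghr* value was not tested. In T1D and Lira together against NGT, 0 of 35 genes passed (0% of all tested genes, lowest adjusted p of the set 0.999, edgeR). *Igfbp4* (log2 fold change 0.92 ± 0.33, SE, unadjusted p = 0.0236, edgeR) and *Grb14* (-0.67 ± 0.25, SE, unadjusted p = 0.0261, edgeR) were the 2 of 35 with an unadjusted p under 0.05, against 1.80% of all tested genes and 3 by DESeq2 (2.47%). The unadjusted p of *Igfbp4* was 0.0922 without NGT mouse 2 and 0.0839 without NGT mouse 3, and that of *Grb14* was 0.098 and 0.0508 without the same mice and 0.0537 without Lira mouse 1 (edgeR). The count under 0.05 was 0 of 35 without NGT mouse 2 (0.646% of all tested genes) or NGT mouse 3 (0.761%), 1 without Lira mouse 1 (1.24%), 4 without T1D mouse 1 (2.1%) and 5 without Lira mouse 2 (3.82%). In both genes the 6 STZ mice overlapped with the 3 NGT mice, and 0 of 35 genes showed no overlap, against 0.817% of all tested genes. The median log2 fold change of the set was 0.03 in Lira against NGT and -0.02 in the STZ mice against NGT, beside 0.04 and 0.03 over all tested genes. Values above 0 were found for 18 of 35 genes in Lira against NGT (55.5% of all tested genes) and for 16 of 35 in the STZ mice against NGT (55.0% of all tested genes).

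The other genes of the pathway were taken from a list of 58 symbols, of which 56 were in the table and 52 were tested. *Ins2*, which encodes insulin, had 1 count in NGT mouse 3 and 0 counts in the 8 other libraries. An unadjusted p under 0.05 was found for 2 of 52 in T1D against NGT (both higher, against 3.95% of all tested genes), for 2 in Lira against T1D (1 higher and 1 lower, against 3.33%), for 2 in Lira against NGT (both higher, against 0.781%) and for 3 in the STZ mice against NGT (all higher, against 1.80%), and none passed the adjusted threshold (edgeR). *Cish*, a target and inhibitor of cytokine and growth hormone signaling through STAT5, had 2.41, 2.01 and 1.27 CPM in the NGT mice, 4.19, 4.32 and 10.9 CPM in the T1D mice and 10.9, 4.52 and 5.74 CPM in the Lira mice. All 6 STZ mice were above all 3 NGT mice, with a log2 fold change of 1.82 ± 0.48 (SE, unadjusted p = 0.00432, adjusted p = 0.999, edgeR). *Cish* was the 1 of 52 genes without overlap in this comparison, against 0.817% of all tested genes. The exact permutation test over mice gave its smallest possible p of 0.0119 (two-sided). It restates the separation of the ranges, without correction for the choice of *Cish* by p-value, and is no further support. *Foxo1*, the transcription factor that Akt keeps out of the nucleus, had 80.7, 129 and 104 CPM in the NGT mice, 46.4, 53.5 and 55.7 CPM in the T1D mice and 293, 65.4 and 70.9 CPM in the Lira mice. The T1D mice were the lowest for *Foxo1*, and Lira mouse 1 was far above all others (Lira against T1D log2 fold change 1.46 ± 0.54, SE, unadjusted p = 0.0254, adjusted p = 0.978, edgeR). Without Lira mouse 1 it was 0.39 (unadjusted p = 0.112, edgeR). *Ddit4*, a stress-induced inhibitor of mTORC1, had 17.1 to 36.9 CPM in the NGT mice, 22.9 to 105 CPM in the T1D mice and 63.9 to 254 CPM in the Lira mice, again with the highest value in Lira mouse 1. *Igf2bp2*, an RNA-binding protein of *Igf2* mRNA, had 1.82 to 2.79 CPM in the NGT mice and 2.33 to 7.50 CPM in the T1D mice. *Ptprf*, a receptor phosphatase, had 4.80 to 12.2 CPM in the T1D mice and 3.62 to 3.82 CPM in the Lira mice.

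Because the libraries differed in their share of muscle and osteoblast marker counts, each gene was related over the 9 mice to the mean log2(CPM + 1) of 4 marker lists, 140 relations in all. Levels and lists come from the same libraries and share their scaling. No Pearson correlation passed an adjusted p of 0.05 (exact permutation over mice, Benjamini-Hochberg over 140), by Spearman 1 did, and after group means were subtracted 0 did (exact permutation within groups). At an unadjusted p under 0.05 there were 14 of 35 genes for the muscle list, 10 for the osteoblast list, 4 for the neutrophil list and 2 for the erythroid list (exact permutation). Of all tested genes, 38.0%, 27.7%, 25.2% and 17.3% reached that level with these lists, so that the counts for muscle and osteoblasts were near the background and the others were below it. The median r of the 35 genes was 0.47 with the muscle list (-0.04 over all tested genes), -0.40 with the osteoblast list (-0.03), -0.37 with the neutrophil list (-0.05) and -0.30 with the erythroid list (-0.06).

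*Akt2* had the highest Pearson r with the muscle list, at r = 0.94 (exact permutation p = 0.00185, adjusted p = 0.089) and rho = 0.78 (exact permutation p = 0.0172, adjusted p = 0.214), and r was 0.87 without NGT mouse 1 and T1D mouse 1. *Gsk3a* had r = 0.83 (exact permutation p = 0.00293, adjusted p = 0.093) and rho = 0.97 (exact permutation p = 0.000165, adjusted p = 0.0231), and r was 0.65 without these mice. *Igf1* ran opposite to muscle at r = -0.82 (exact permutation p = 0.00834, adjusted p = 0.117) and rho = -0.60 (exact permutation p = 0.0968, adjusted p = 0.339), but r was -0.21 without these mice, on which the relation rests. *Rptor*, which was lowest in T1D, ran opposite to the osteoblast list at r = -0.88 (exact permutation p = 0.00399, adjusted p = 0.093) and rho = -0.53 (exact permutation p = 0.148, adjusted p = 0.382), and r was -0.74 without NGT mouse 2 and Lira mouse 2. *Igfbp4* ran with the osteoblast list at r = 0.75 (exact permutation p = 0.0205, adjusted p = 0.173) and rho = 0.40 (exact permutation p = 0.291, adjusted p = 0.458), and r was 0.51 without these mice. With the muscle list *Igfbp4* had r = -0.685 (exact permutation p = 0.0441, adjusted p = 0.216) and rho = -0.717 (exact permutation p = 0.0369, adjusted p = 0.235). That r was -0.374 without NGT mouse 1 and T1D mouse 1. *Rptor* had r = 0.655 with the muscle list (exact permutation p = 0.0649, adjusted p = 0.244). The osteoblast list ranged from 1.88 to 4.74 in NGT, 4.01 to 5.83 in T1D and 2.55 to 4.88 in Lira mice, and 3 of its 12 markers were at 0 counts in at least 1 library. Of the 12, 11 had a log2 fold change above 0 in T1D against NGT, and 1 had one in Lira against T1D. The part of bone or muscle cells in the values of *Igfbp4* and *Rptor* was not tested.

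**Figure D4:**
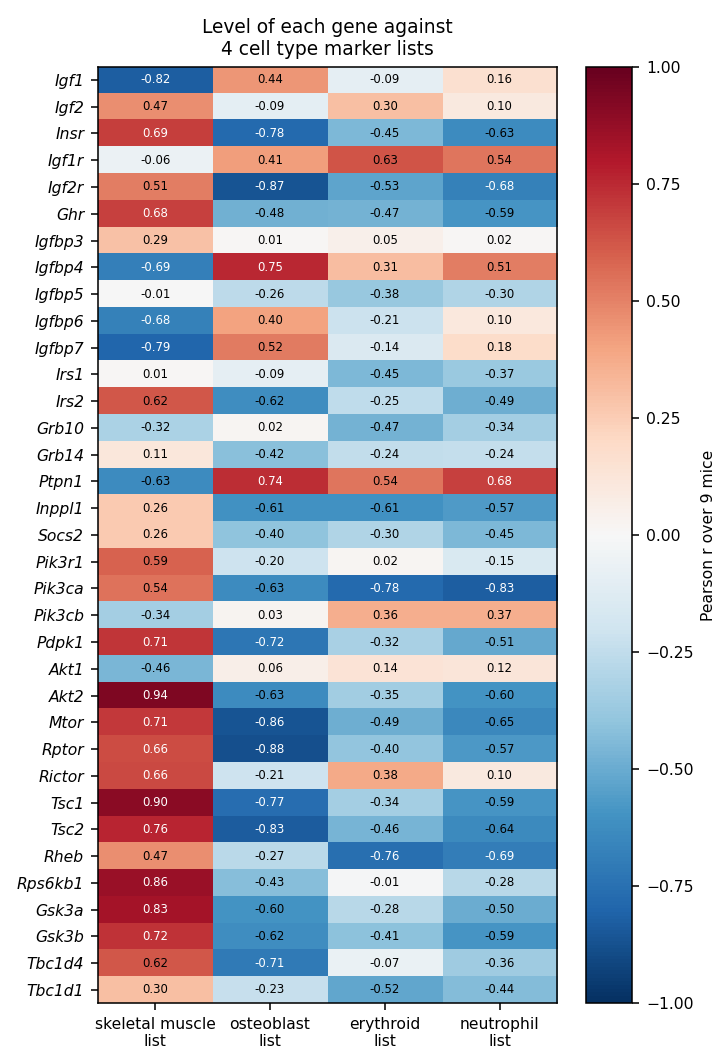
Pearson r over 9 mice (color and printed value) between each of the 35 tested genes (rows) and the mean log2(CPM + 1) of 4 cell type marker lists (columns). Akt2 (0.94) and Tsc1 (0.90) are highest with skeletal muscle, Igf1 is lowest (-0.82), and Rptor (-0.88) is lowest with osteoblasts; no adjusted p was under 0.05.

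Pairs of these genes were then compared over the 9 mice, 595 pairs in all, a step chosen after seeing the data. An absolute Pearson r of 0.9 or above was found for 9 pairs (1.51%), against 1.34% of the 97433820 pairs of all tested genes, and one of 0.7 or above for 66 pairs (11.1%), against 13.9%. Both shares were near the background, and the following pairs are given as a description. The 3 pairs with an adjusted p under 0.05 (exact permutation, Benjamini-Hochberg over the 595 pairs) by Pearson were all positive, and by Spearman 2 pairs passed, 1 of these 3 and *Tsc1* with *Gsk3b* (r = 0.88, adjusted p = 0.0565, and rho = 0.97, adjusted p = 0.0492, exact permutation), for which r was 0.94 without T1D mouse 1 and Lira mouse 1. *Igfbp6* and *Igfbp7* varied together at r = 0.95 (adjusted p = 0.00328, exact permutation) and rho = 0.98 (adjusted p = 0.0295, exact permutation), and r was 0.99 without NGT mouse 1 and T1D mouse 1. *Mtor* and *Tsc2*, which encode the kinase and part of its brake, had r = 0.93 (adjusted p = 0.0257, exact permutation) and rho = 0.95 (adjusted p = 0.07, exact permutation), and r was 0.85 without NGT mouse 2 and Lira mouse 2. *Mtor* and *Rptor*, 2 subunits of mTORC1, had r = 0.92 (adjusted p = 0.0257, exact permutation) and rho = 0.82 (adjusted p = 0.279, exact permutation), and r was 0.81 without the same mice. *Mtor*, *Tsc2* and *Rptor* also each ran opposite to the osteoblast list, at r = -0.86, -0.83 and -0.88, and *Igfbp6* and *Igfbp7* to the muscle list, at r = -0.68 and -0.79. With the muscle list *Mtor*, *Tsc2* and *Rptor* had r = 0.709, 0.763 and 0.655. With the osteoblast list *Igfbp6* and *Igfbp7* had r = 0.403 and 0.516. With each mouse taken as its deviation from its group mean, 0 of 595 pairs passed (exact permutation within groups).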

How the data were processed

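RNA of 1 tibia from each of 3 NGT, 3 T1D and 3 Lira mice was sequenced, with 1 library per mouse. The authors deposited expected counts per gene, not normalized, and FPKM values, scaled by the authors for gene length and library total. Of the counts, 30.2% were not whole (tolerance 1e-06), which is how estimated counts divide reads between genes, and they were rounded. The submitters' processing notes name the mm9 build, while the aligner, the counting tool and the strand setting are not given in the sources used here. Genes that share sequence with a copy or overlap another gene are therefore less certain. The authors' group means were not used, and every sample column had its sample (0 left over).

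Genes with at least 10 counts in 3 libraries were tested (13960 of 18272) in R 4.3.3 with edgeR 4.0.16 (TMM, glmQLFit and glmQLFTest, 1 mean per group over all 9 libraries). The threshold was a Benjamini-Hochberg adjusted p under 0.05 and a fold change over 2. Standard errors were derived from the F statistic. The procedure was tested on simulated data. Correlations and their exact permutation p-values (two-sided) were computed with numpy 2.4.6 on log2(CPM + 1), with ranks from scipy 1.17.1. Exact permutation tests between groups (two-sided) were run in R on the same scale.

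As a pairing check, NGT and T1D mice that share a number were compared by their deviations from the group means across genes, which gave r = 0.583, 0.647 and 0.283. All are over 0.1, so the numbers were taken as pairs there, although neither the labels nor the paper describe a pairing. The other groups gave -0.173, 0.727 and 0.0125 (NGT and Lira) and -0.244, 0.615 and 0.271 (T1D and Lira) and were not taken as pairs. Mice of unlike number reached 0.78 (NGT mouse 1 and Lira mouse 3).

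The genes and lists were chosen with earlier results of these data known. Genes with an unadjusted p under 0.05 in any comparison, *Insr*, *Igf1r*, *Igf1*, *Irs1*, *Irs2*, and the gene of highest FPKM in each role were given mouse by mouse, with at most 6 other pathway genes. *Mtor*, *Pik3r1*, *Tbc1d1* and *Tbc1d4* and the pairs of genes were chosen after their values were seen. Alternatives were DESeq2 1.42.0, library size in place of TMM, no filter, fits restricted to the groups compared, the replicate block, the muscle list as a covariate, limma 3.58.1 on log2(FPKM + 0.1) and log2(FPKM + 1), edgeR's robust option, no fold threshold, and leaving out mice. No protein sequences were used here.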

Additional observations from a re-analysis of the deposited data

How the results depend on the processing

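In every alternative, 0 of the 35 genes (0 of 37 with no low-count filter) passed the adjusted threshold in any comparison. Of all tested genes 0 passed as well, except for 1 of 13960 by DESeq2 in Lira against T1D. The number at an unadjusted p under 0.05 moved more. In T1D against NGT (3) it was 5 with only the groups compared (4.02% of all genes), 9 with the replicate block and only the groups compared (14.2%), and 5 with the muscle covariate (5.22%). In Lira against T1D (2) it was 5 with library size (2.51%), 0 with only the groups compared (2.14%), 6 with the muscle covariate (5.06%), 4 on log2(FPKM + 0.1) (2.04%), 4 on log2(FPKM + 1) (2.14%), and 4 without T1D mouse 1 and Lira mouse 3 (3.66%). In Lira against NGT (1) it was 3 with the replicate block (1.15%), 2 with the block and only the groups compared (0.714%), 3 with the muscle covariate (2.21%) and 2 without T1D mouse 1 and Lira mouse 3 (1.57%). In the STZ mice against NGT (2) it was 4 with the replicate block in either fit (2.86%), 4 with the muscle covariate (3.28%) and 4 on both FPKM scales (1.49% and 1.46%). Leaving out 1 mouse, the 4 counts ranged from 2 to 6, 0 to 4, 0 to 4 and 0 to 5. The block changed no call. The relations with marker lists that passed (0 of 140) were 1 by Spearman, 1 without T1D mouse 1 and Lira mouse 3, and 0 to 1 leaving out 1 mouse. Of the log2 fold changes, *Irs2* in T1D against NGT turned to 0.12 with the muscle covariate, 0.022 and 0.006 on the FPKM scales and 0.067 without T1D mouse 1 and Lira mouse 3, where *Igf1* turned to -0.074. Leaving out 1 mouse, T1D against NGT gave -0.043 to 1.48 for *Igf1*, -0.23 to 0.038 for *Insr* and -0.39 to 0.43 for *Irs2*, and Lira against T1D gave -0.19 to 0.15 for *Igf1r*, -0.004 to 0.51 for *Inppl1* and -0.22 to 0.57 for *Irs2*. The causes were not tested. The other 486 of 500 alternative values of the printed fold changes of these genes, with those of *Foxo1* and *Cish*, whose alternatives were chosen after seeing the data, kept their direction. Of the 37 fold changes of genes given mouse by mouse that are not printed, 69 of 740 alternative values turned direction and 0 passed the adjusted threshold. On log2(FPKM + 0.1) the median of all genes in Lira against T1D was -0.06, against 0.04 with TMM. Depth left *Igfbp1* and *Igfbp2* untested except with no low-count filter.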
